A study of Mus musculus with 6 samples.

Results

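Rab GTPases are small GTP-binding proteins that mark the membranes of the secretory and endocytic pathways and recruit the tethers, motors and coats that move vesicles between them. The gene family was defined here by its symbols: every protein-coding mouse gene named Rab followed by a number and, where present, a letter, apart from Rab3a, which was not analysed here. The rule returned 58 of the 31053 genes listed for each library and used no measured value. Each Rab alternates between a GTP-bound state, in which it binds effectors, and a GDP-bound state that can be taken off the membrane. Guanine nucleotide exchange factors (GEFs) load GTP and GTPase-activating proteins (GAPs) speed its hydrolysis. In neurons Rab proteins are known for synaptic vesicle release, the sorting of receptors in dendritic endosomes and transport along axons.

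The measurement was EPR, the number of C-to-U edits assigned to a gene divided by the number of its sequencing reads, in cells that carry a ribosomal protein fused to the cytidine deaminase APOBEC1 (Ribo-STAMP). Cortical neurons were taken from wild-type C57BL/6J embryos at embryonic day 18, received floxuridine at day in vitro (DIV) 3 against dividing cells, were infected with adeno-associated virus at DIV 6, and were collected at DIV 14 after 48 h of doxycycline at 1 µg/ml. The 3 RPL10A-STAMP libraries carried APOBEC1 fused to mouse Rpl10a and the 3 RPL22-STAMP libraries carried APOBEC fused to mouse Rpl22. The ribosomal protein stands on opposite ends of the enzyme in these constructs. The synapsin promoter drove the doxycycline-dependent activator, a design meant for expression in neurons, while the polyA RNA was read from the whole culture. The study compared the constructs to choose a design for brain cells, and no library without a fusion protein was used here, so the editing that such cells show by themselves was not subtracted. Each EPR is a property of a construct as well as of a transcript, and the number of reads behind a value is unknown.

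Markers of cell types were examined, although EPR is edits per read and does not measure how much of a cell type was present. All 7 neuronal markers examined were edited in all 6 libraries, against 4 of 6 astrocyte markers, 1 of 6 markers of the oligodendrocyte lineage and 0 of 5 microglial markers, of which P2ry12, Csf1r, Tmem119 and Aif1 were listed at 0 throughout. The summed EPR of the astrocyte markers ranged from 0.188 to 0.238 with RPL10A-STAMP and from 0.109 to 0.257 with RPL22-STAMP. That of the neuronal markers ranged from 0.151 to 0.187 and from 0.135 to 0.166. The astrocyte sum was above the neuronal sum in every library except RPL22-STAMP replicate 1. The summed EPR of the excitatory markers was higher in every RPL10A-STAMP library (0.0887 to 0.136) than in any RPL22-STAMP library (0.0495 to 0.0591), and that of the inhibitory markers was lower (0.0175 to 0.0316, against 0.0471 to 0.0631). The part of glial RNA or of neuron classes in the Rab values was not tested. Among the 8046 genes with edits in every library, the median EPR ranged from 0.0120 to 0.0161 with RPL10A-STAMP and from 0.00907 to 0.0129 with RPL22-STAMP, so each library was scaled to its own median before the constructs were compared.

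Of the 58 Rab genes, 40 carried edits in all 6 libraries and could be tested, 10 carried edits in some libraries and 8 were listed at 0 in all. The 8 at 0 were Rab13, Rab17, Rab19, Rab20, Rab25, Rab38, Rab42 and Rab44. An EPR of 0 does not show whether such a gene was expressed, since the number of reads behind it is unknown. Between 42 and 46 of the 58 genes were edited in a given library (72.4% to 79.3%), whereas 43.8% to 49.5% of all protein-coding genes were. The tested Rab genes were also edited more per read than the typical tested gene. Their median EPR ranged from 0.0151 to 0.0251 across libraries, 1.54 to 1.67 times the median of all tested genes in the same library, and 26 to 34 of the 40 genes stood above that median.

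Coding sequence of the paralogs whose relative EPR separated the constructs is shown first. Within the stretch shown the encoded amino acids are nearly the same, while the cytosines differ to an extent that varies between pairs. Which of these cytosines were edited is not known here. Each line gives 90 coding bases, 5′ to 3′, around the loop that binds the phosphates of GTP, from the GRCm38 (mm10) reference with GENCODE gene models, and the capitals mark every cytosine.
Rab1a, chr11:20201432-20226856, + strand, coding bases 28 to 117: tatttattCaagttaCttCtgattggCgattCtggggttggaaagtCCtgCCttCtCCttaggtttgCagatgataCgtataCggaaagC
Rab1b, chr19:5099205-5107072, - strand, coding bases 19 to 108: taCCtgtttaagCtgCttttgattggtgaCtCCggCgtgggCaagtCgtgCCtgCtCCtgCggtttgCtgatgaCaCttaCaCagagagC
Rab5a, chr17:53479234-53507680, + strand, coding bases 55 to 144: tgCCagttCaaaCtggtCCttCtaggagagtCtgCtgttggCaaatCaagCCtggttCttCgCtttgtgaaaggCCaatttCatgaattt
Rab5b, chr10:128677175-128696264, - strand, coding bases 55 to 144: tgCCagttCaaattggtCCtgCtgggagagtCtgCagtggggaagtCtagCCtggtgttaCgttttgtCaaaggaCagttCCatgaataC
Rab5c, chr11:100715009-100738215, - strand, coding bases 58 to 147: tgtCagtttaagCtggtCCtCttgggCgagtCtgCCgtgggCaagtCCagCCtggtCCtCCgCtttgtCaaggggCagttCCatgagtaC
Rab8a, chr8:72161200-72183904, + strand, coding bases 19 to 108: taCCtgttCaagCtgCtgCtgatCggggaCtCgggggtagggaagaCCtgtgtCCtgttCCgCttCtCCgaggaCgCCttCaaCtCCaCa
Rab8b, chr9:66843664-66919687, - strand, coding bases 19 to 108: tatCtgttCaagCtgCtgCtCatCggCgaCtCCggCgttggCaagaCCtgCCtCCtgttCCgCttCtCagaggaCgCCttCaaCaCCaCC

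The coordinates are those of the genes, and the stretches are spliced. Rab1a and Rab1b encode the same amino acid at 30 of 30 codons shown but use the same codon at 9, with 16 and 22 cytosines. Over the whole coding sequence cytosine makes up 19.0% of Rab1a and 25.9% of Rab1b. Rab5a shares 29 of 30 amino acids with both Rab5b and Rab5c, and the windows hold 19, 17 and 24 cytosines. Rab8a and Rab8b share 28 of 30 amino acids, with 27 and 33 cytosines. Cytosines at the same position number 12 in Rab1a and Rab1b, 14 in Rab5a and Rab5b and 15 in Rab5a and Rab5c. In Rab8a and Rab8b they number 25, so most cytosines of that pair are shared. Over the whole coding sequence the order of that last pair is the other way, with 21.7% cytosine in Rab8a and 19.6% in Rab8b.

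The comparison between the constructs asked, gene by gene, whether the scaled EPR differed. Of the 40 tested genes, 6 passed limma's test at an adjusted p under 0.05 over all 8046 genes, which is 15% of them against 14.3% of all tested genes. Higher with RPL10A-STAMP were Rab28 and Rab9b, 5% of the tested Rab genes against 8.51% of all genes. Higher with RPL22-STAMP were Rab1b, Rab40b, Rab5b and Rab8a, 10% against 5.77%. The share called lay near that of all genes and is no result about the family. An unadjusted p under 0.05 was found for 14 Rab genes (35%) and for 30.9% of all genes. After scaling, the libraries of the constructs did not overlap for 17 of the 40 genes (42.5%, against 37.1% of all tested genes), with RPL10A-STAMP the higher construct for 5 of them (12.5%, against 20% of all genes) and RPL22-STAMP for 12 (30%, against 17.1%). Before scaling, the balance was the other way, with RPL10A-STAMP higher for 10 (25%, against 28.2%) and RPL22-STAMP for 4 (10%, against 6.21%). The log2 fold change (RPL10A-STAMP minus RPL22-STAMP) was negative for 26 of the 40 genes, or 65%, against 51.3% of all genes. Its median was -0.14 against -0.01 for all genes, and without scaling it was 0.11 against 0.18, so the sign depended on the scaling. Scaling divides a whole library by a single number and moves all genes the same way. That the Rab median lay below that of all genes both ways is thus no independent check, and the difference of the medians was not tested. Leaving out a library lowered the count of Rab genes called to 2, 0 and 1 without RPL10A-STAMP replicates 1, 2 and 3. Without RPL22-STAMP replicates 1, 2 and 3 that count was 4, 4 and 2. The share of all tested genes called fell as well, to 8.29%, 5.32% and 4.59% without the RPL10A-STAMP replicates in that order. Without the RPL22-STAMP replicates this share was 10.9%, 9.27% and 7.57%. Rab1b was called in 15 of 18 alternative settings, Rab28 in 14, Rab40b in 12, Rab5b in 6, Rab9b in 4 and Rab8a in 3.

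**Figure D1:**
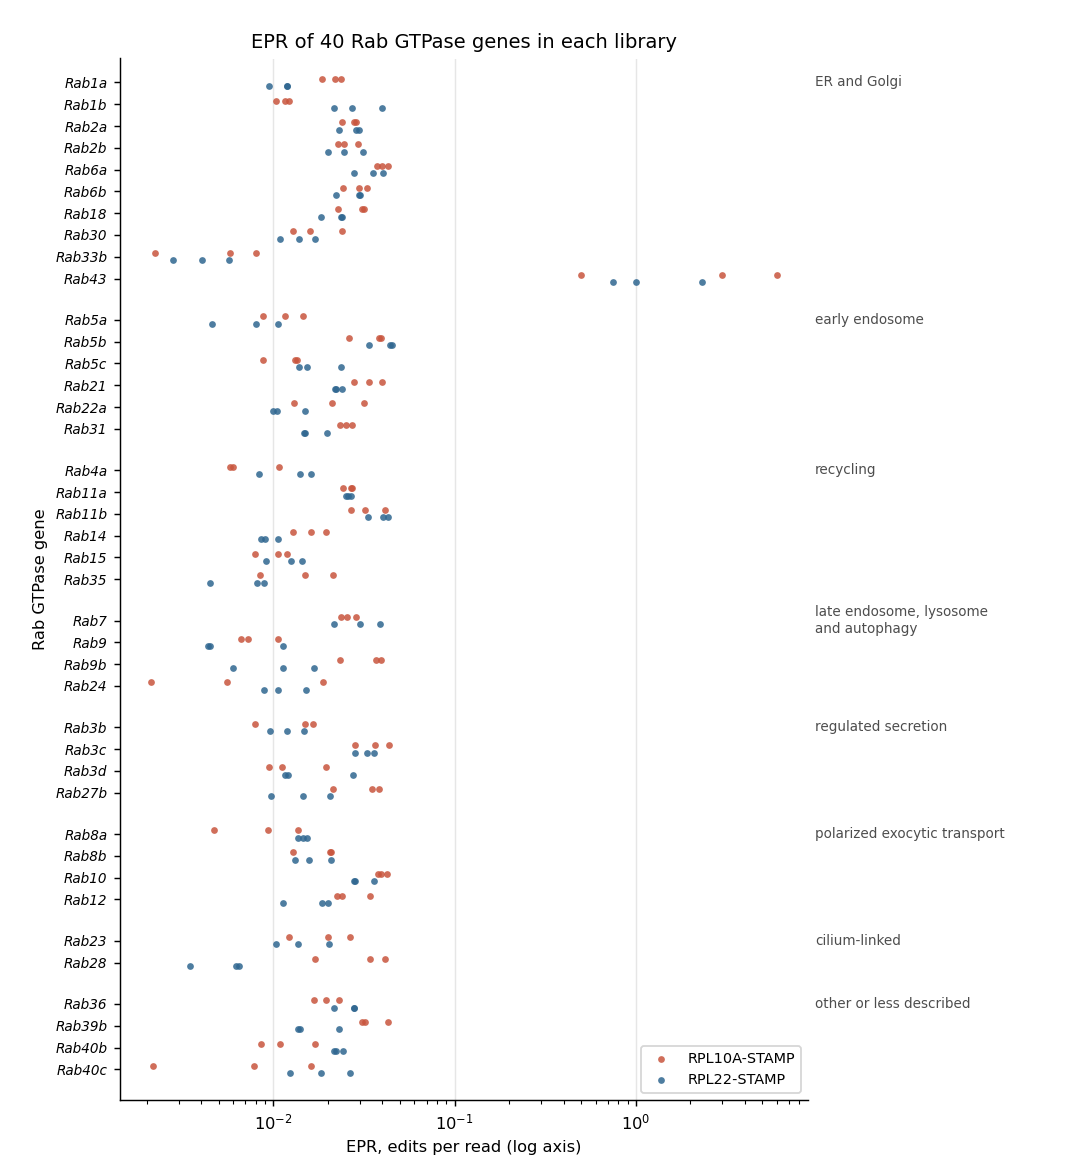
EPR of each of the 40 tested Rab genes in each library, on a log axis, grouped by the transport step the protein serves. Each point is a library, 3 per construct; Rab43 stands apart at 0.5 to 6 edits per read, and all other genes lie below 0.05.

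Rab proteins of the endoplasmic reticulum (ER) and Golgi form the most populated class, with 11 members and 10 tested. Rab1b, which with Rab1a serves transport from the ER to the Golgi, had an EPR of 0.0121, 0.0116 and 0.0103 in RPL10A-STAMP replicates 1 to 3 and of 0.0217, 0.0272 and 0.0399 in RPL22-STAMP replicates 1 to 3. All 3 RPL22-STAMP libraries were above all 3 RPL10A-STAMP libraries, with means of 0.0296 ± 0.0093 and 0.0113 ± 0.00094 (SD, n = 3). On the scaled log2(EPR + 0.01) scale the difference was -1.11 (SE 0.19), with a limma adjusted p of 0.0133. Its paralog Rab1a ran the other way. Rab1a had an EPR of 0.0184, 0.0237 and 0.0220 with RPL10A-STAMP against 0.00950, 0.0119 and 0.0119 with RPL22-STAMP, again without overlap. The log2 difference of Rab1a was 0.34 (SE 0.12) and missed the threshold (limma adjusted p = 0.114). With the trend on GC content removed, that of Rab1a was -0.01, while Rab1b kept its sign.

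Others of this class differed less. Rab2a and Rab2b, which act between the ER, Golgi and endosomes, had mean EPRs of 0.0269 and 0.0254 over the 6 libraries, and their log2 differences were -0.29 and -0.26. Neither passed the test, although after scaling both were higher in every RPL22-STAMP library. Rab6a, which governs transport within and out of the Golgi, was among the most edited genes, at 0.0375, 0.0398 and 0.0432 with RPL10A-STAMP against 0.0277, 0.0402 and 0.0356 with RPL22-STAMP. Those groups overlapped, and the log2 difference of Rab6a was -0.12 (SE 0.13). Of its exon bases 19.0% lie opposite an exon of Mrpl48, and the strand setting of the read counting is not given in the sources used here. Rab33b, tied to autophagosome formation, had the lowest mean EPR of the tested genes at 0.00476, with 0.00577, 0.00804 and 0.00221 against 0.00405, 0.00569 and 0.00280. Rab18, a Rab of the ER and lipid droplets, and Rab30, a Golgi Rab, had log2 differences of -0.01 and -0.05. Rab33a, the neuronal relative of Rab33b, was edited in 4 of 6 libraries and was not tested.

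Rab43 needs its own description. Its EPR was 6, 0.5 and 3 with RPL10A-STAMP against 1, 2.33 and 0.75 with RPL22-STAMP, the highest of the tested Rab genes by far. Values above 1 mean more edits than reads, and 75.4% of the exon bases of Rab43 are also exon bases of Gm45140 on the same strand. Rab4b, the other gene above 1, had an EPR of 0.6, 2 and 0 against 5.5, 5 and 1.4, and shares 65.0% of its exon bases with Gm21983. Among all tested genes 36 had a mean EPR above 1. The part of shared exons in these values was not tested, and neither gene is read as a level of editing.

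Early endosomal Rabs were all edited in every library, and 1 of the 6 was called, where 14.3% of all tested genes were called. Rab5 proteins direct the fusion of early endosomes and so the uptake of synaptic vesicle membrane and receptors. Rab5b had the highest mean EPR among the Rab genes below 1 edit per read (0.0377). Its values were 0.0261, 0.0383 and 0.0393 with RPL10A-STAMP against 0.0335, 0.0450 and 0.0442 with RPL22-STAMP. As deposited these groups overlapped, and after scaling all RPL22-STAMP libraries were higher, with a log2 difference of -0.51 (SE 0.13, limma adjusted p = 0.0418). Exact copies of at least 50 bases elsewhere in the genome cover 86.4% of the Rab5b transcript, the largest share in the family, so its reads can align in several places. The same limit holds for other genes, since 18 of the 40 tested have such a copy. Among them are Rab7 (62.3% of the transcript), Rab2a (35.6%), Rab9 (32.2%) and Rab11b (26.1%).

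Rab5c moved in the same direction without passing the test and Rab5a did not. Rab5c had an EPR of 0.00881, 0.0132 and 0.0135 with RPL10A-STAMP against 0.0152, 0.0138 and 0.0238 with RPL22-STAMP, groups that did not overlap (log2 difference -0.56, SE 0.18, limma adjusted p = 0.0855). Rab5a, among the 5 lowest genes, had 0.00877, 0.0145 and 0.0116 against 0.00806, 0.0106 and 0.00456, with a log2 difference of 0.10 (SE 0.17). Copies elsewhere cover 50.5% of the Rab5a transcript. The remaining early endosomal genes had small positive log2 differences. They were 0.12 for Rab21, 0.27 for Rab22a and 0.15 for Rab31, none of which passed the test.

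No Rab of the recycling pathway was called among 6 tested, where 14.3% of all tested genes were called. Rab11b, which returns receptors from recycling endosomes to the surface and is abundant in brain, was the third most edited gene below 1 edit per read. It had an EPR of 0.0268, 0.0320 and 0.0415 with RPL10A-STAMP against 0.0332, 0.0404 and 0.0431 with RPL22-STAMP, and after scaling the groups did not overlap. The log2 difference of Rab11b was -0.49 (SE 0.14, limma adjusted p = 0.0621). Its paralog Rab11a had the narrowest range of the family before scaling, between 0.0243 and 0.0272 in all 6 libraries, and after scaling a log2 difference of -0.27 (SE 0.15, limma adjusted p = 0.260). Rab4a, of the fast recycling route, had 0.0108, 0.00600 and 0.00577 against 0.0141, 0.00833 and 0.0161, with a log2 difference of -0.57 (SE 0.24, limma adjusted p = 0.163). Rab14 and Rab35 had positive log2 differences of 0.21 and 0.30, and Rab15 a negative one of -0.33. For Rab14 and Rab15 the scaled groups did not overlap, in opposite directions. Rab25, a close relative of Rab11, was at 0.

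Among Rabs of late endosomes, lysosomes and autophagy, 4 of 8 could be tested and Rab9b was called. Rab9 proteins act in transport from late endosomes to the trans-Golgi. Rab9b had an EPR of 0.0233, 0.0369 and 0.0391 with RPL10A-STAMP against 0.0113, 0.0167 and 0.00601 with RPL22-STAMP, so that the lowest RPL10A-STAMP library exceeded the highest RPL22-STAMP library. The log2 difference of Rab9b was 0.77 (SE 0.20, limma adjusted p = 0.0479), near the threshold. Rab9, the paralog, was edited at a lower level, with 0.00661, 0.0106 and 0.00724 against 0.00448, 0.00434 and 0.0114, and its log2 difference was -0.03 (SE 0.19). Rab7, which directs late endosomes to lysosomes, had 0.0235, 0.0256 and 0.0284 against 0.0217, 0.0300 and 0.0388, and a log2 difference of -0.42 (SE 0.16, limma adjusted p = 0.128). Rab24, an atypical Rab linked to autophagy, had the widest spread relative to its mean among the tested genes with RPL10A-STAMP, at 0.00557, 0.0188 and 0.00212 against 0.0106, 0.0152 and 0.00885. Of its exon bases 62.4% lie opposite exons of Prelid1. Rab29, Rab32 and Rab7b were each edited in 1 library.

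The Rabs of regulated secretion showed no call among the 4 genes tested with edits in all 6 libraries, where 14.3% of all tested genes were called. Rab3c, a synaptic vesicle Rab, was among the 5 most edited below 1 edit per read, with 0.0281, 0.0434 and 0.0365 with RPL10A-STAMP against 0.0282, 0.0358 and 0.0329 with RPL22-STAMP. These groups overlapped, and the log2 difference of Rab3c was -0.19 (SE 0.14). Rab3b and Rab3d, its paralogs, had mean EPRs of 0.0126 and 0.0152. Rab27b, which docks secretory vesicles, had 0.0214, 0.0382 and 0.0350 against 0.00974, 0.0206 and 0.0145. Its groups did not overlap and its log2 difference was 0.48 (SE 0.16), short of the threshold (limma adjusted p = 0.0925). Rab26 and Rab27a were edited in 4 and 3 libraries and Rab37 in 1. Rab26, linked to the autophagy of synaptic vesicles, was at 0.00465, 0 and 0 with RPL10A-STAMP against 0.0126, 0.0272 and 0.0110 with RPL22-STAMP, and shares 9.36% of its exon bases with Traf7. It was called by limma when edits in 3 or more libraries sufficed for testing (log2 difference -1.30, adjusted p = 0.0390), and not when edits in 1 library sufficed (adjusted p = 0.0549). Rab26 met the filter of 3 libraries only through the RPL22-STAMP libraries, where it was higher, so that call is not read as a result.

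Rabs of polarized exocytic transport included Rab8a, which carries membrane from the trans-Golgi to the surface and the primary cilium. Rab8a had an EPR of 0.00473, 0.00931 and 0.0137 with RPL10A-STAMP against 0.0137, 0.0154 and 0.0147 with RPL22-STAMP. The highest RPL10A-STAMP value nearly met the lowest RPL22-STAMP value. Its log2 difference was -0.60 (SE 0.16), with a limma adjusted p of 0.0483. Rab8b, its paralog, had 0.0128, 0.0208 and 0.0204 against 0.0157, 0.0209 and 0.0131, which overlapped, and a log2 difference of -0.17 (SE 0.15). Rab10, which supplies membrane to growing axons, was among the most edited genes, with 0.0395, 0.0378 and 0.0424 against 0.0282, 0.0279 and 0.0360. As deposited Rab10 was higher in every RPL10A-STAMP library, and after scaling its log2 difference was -0.00 (SE 0.18). Rab12 had a log2 difference of 0.22 and Rab13 was at 0.

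The largest positive difference in the family belonged to a cilium-linked Rab. Rab28, known for its part in photoreceptor cilia, had an EPR of 0.0171, 0.0415 and 0.0343 with RPL10A-STAMP against 0.00623, 0.00649 and 0.00348 with RPL22-STAMP. All RPL10A-STAMP values were above all RPL22-STAMP values, with means of 0.0310 ± 0.013 and 0.00540 ± 0.0017 (SD, n = 3). The log2 difference of Rab28 was 1.14 (SE 0.21), with a limma adjusted p of 0.0153. Its transcript has no exact copy of at least 50 bases elsewhere and shares no exon with another gene on either strand. Rab23, an inhibitor of Hedgehog signalling, had a log2 difference of 0.01 (SE 0.22), and Rab34 was edited in 4 of 6 libraries and not tested.

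Of the remaining genes Rab40b was called. Rab40 proteins carry a SOCS box and recruit ubiquitin ligases. Rab40b had an EPR of 0.00853, 0.0108 and 0.0170 with RPL10A-STAMP against 0.0217, 0.0221 and 0.0243 with RPL22-STAMP, without overlap (log2 difference -0.83, SE 0.16, limma adjusted p = 0.0178). Rab40c had 0.00216, 0.0161 and 0.00777 against 0.0184, 0.0264 and 0.0124, and the larger log2 difference of -0.91 came with a larger error (SE 0.27, limma adjusted p = 0.0687). Rab40b was thus called and Rab40c was not, although their differences have the same sign. Rab39b, mutated in an inherited intellectual disability, had log2 difference 0.48 (SE 0.24) and Rab36 had -0.53 (SE 0.20). Rab39 was edited in 3 of 6 libraries.

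**Figure D2:**
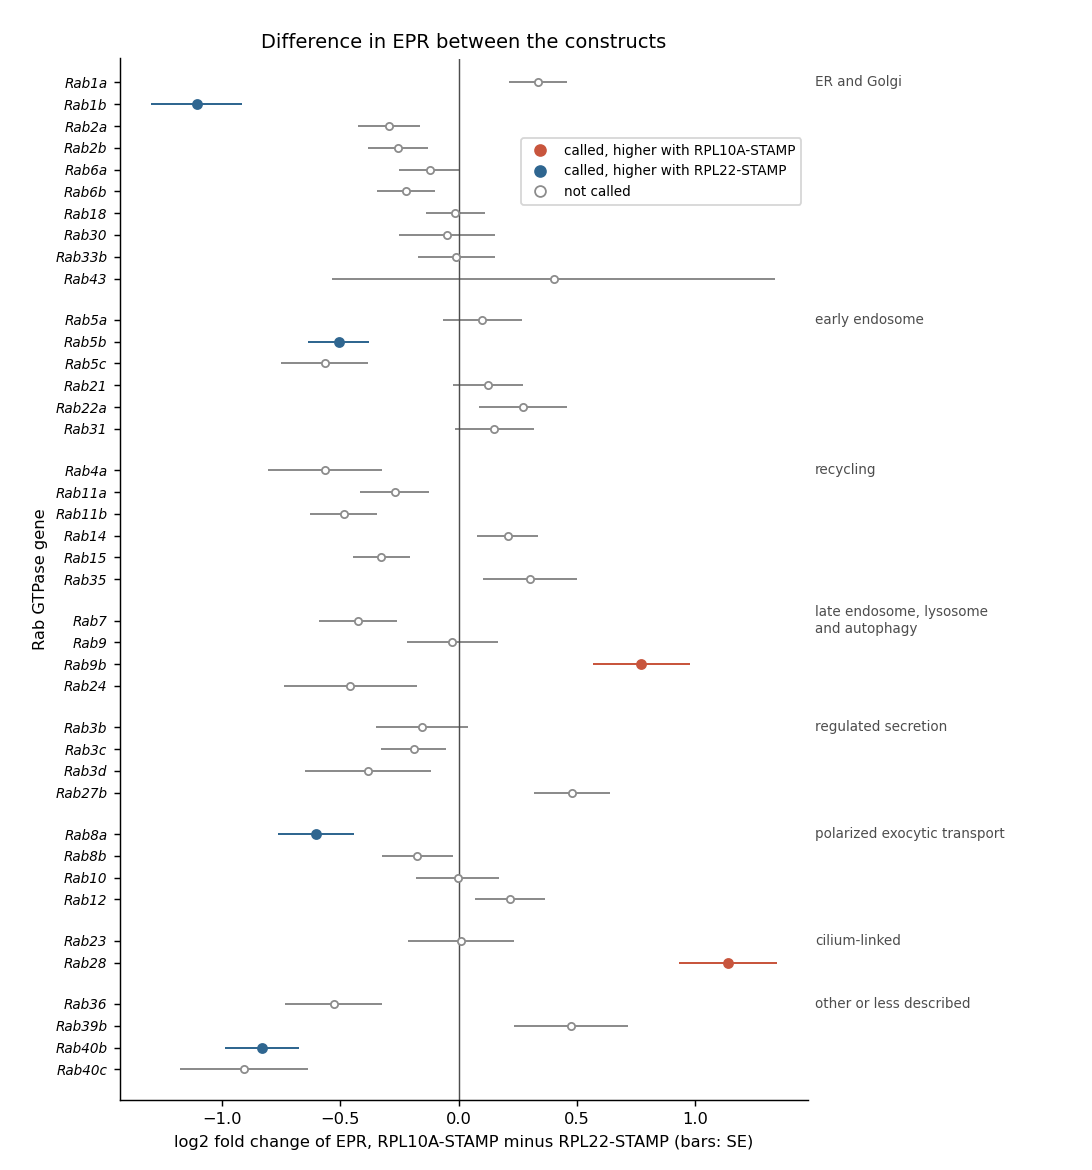
Log2 fold change of EPR between the constructs for each tested Rab gene, with its standard error, grouped by transport step. Filled points passed limma's test over all genes, 2 to the right of 0 and 4 to the left. No transport step holds more than 1 of them, where 14.3% of all tested genes were called.

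No transport step held more than 1 called gene. With 14.3% of all tested genes called, so few calls among 2 to 10 genes are no result about a step. The median log2 difference was 0.11 over the 6 early endosomal genes, -0.30 over the 6 recycling genes, -0.09 over the 10 ER and Golgi genes, -0.23 over the 4 late endosomal genes, -0.17 over the 4 secretory genes and -0.09 over the 4 polarized transport genes. It was 0.57 over the 2 cilium-linked genes and -0.68 over the 4 genes of other functions. These medians describe few genes each and were not tested.

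Paralogs offer a comparison that needs no scaling, since the ratio of their EPRs is taken within a library. Among 14 pairs in 10 groups of paralogs, 4 had ratios that did not overlap between the constructs. No share over other pairs of genes was computed, so this count is no result about paralogs. Of all single genes tested, 37.1% did not overlap after scaling. The Rab1a to Rab1b ratio was 1.52, 2.06 and 2.14 with RPL10A-STAMP against 0.437, 0.439 and 0.297 with RPL22-STAMP. Rab1a was thus the more edited paralog in each RPL10A-STAMP library and Rab1b in each RPL22-STAMP library, a log2 difference of 2.29 (SE 0.24). The Rab5a to Rab5b ratio was 0.336, 0.378 and 0.295 against 0.240, 0.235 and 0.103, so that Rab5b was the more edited in all 6 libraries and more so with RPL22-STAMP. The Rab5a to Rab5c ratio was 0.995, 1.09 and 0.859 against 0.529, 0.766 and 0.192. The Rab8a to Rab8b ratio was 0.369, 0.448 and 0.671 against 0.878, 0.737 and 1.12, the only one of these 4 that was lower with RPL10A-STAMP. For each of the 4 pairs the two-sided exact permutation test gave p = 0.10, the smallest that 3 libraries against 3 allow, and 0.35 after Benjamini-Hochberg adjustment over the 14 pairs.

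The other 10 pairs overlapped. Rab2a to Rab2b was close to 1 in all libraries, from 0.911 to 1.21, and Rab6a to Rab6b ranged from 1.19 to 1.54. The log2 differences of these pairs were -0.04 (SE 0.14) and 0.15 (SE 0.09). The Rab9 to Rab9b ratio was 0.283, 0.287 and 0.185 against 0.397, 0.260 and 1.89, where RPL22-STAMP replicate 3 was the only library with more editing of Rab9. Rab40b to Rab40c varied from 0.671 to 3.95 within RPL10A-STAMP.

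**Figure D3:**
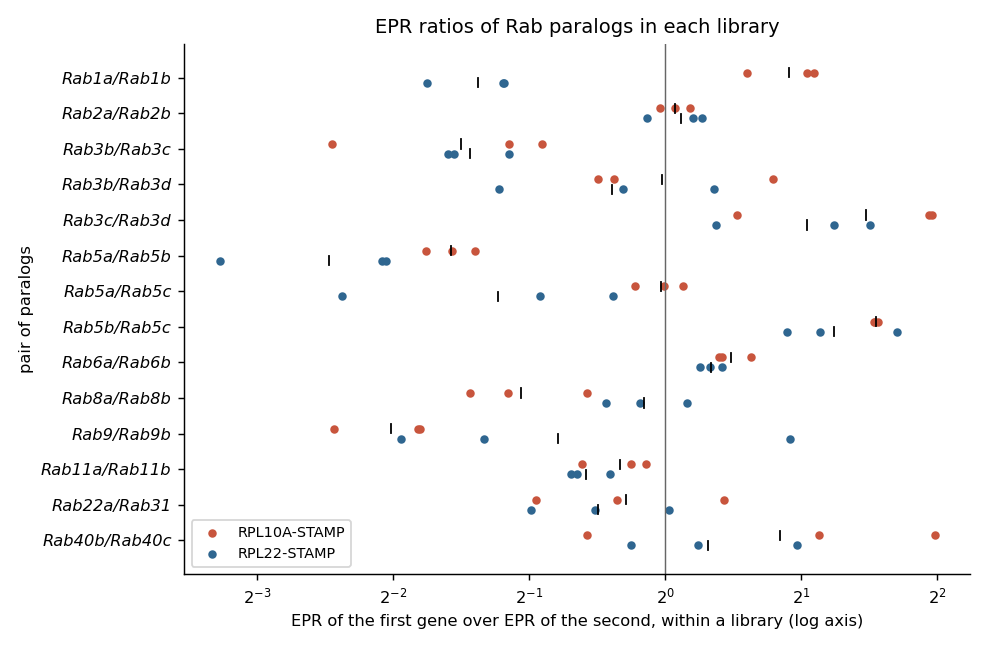
EPR of the first paralog over that of the second within each library, on a log axis, for 14 pairs. Each point is a library and each black tick the mean of the log ratios of a construct; the Rab1a to Rab1b ratio lies above 1 in all RPL10A-STAMP libraries and below 1 in all RPL22-STAMP libraries.

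Base composition moved with these differences. Over the 40 genes the log2 difference fell with the GC content of the transcript (Spearman's rho -0.54), as it did over the 8039 tested genes with a transcript sequence (-0.47), a relation across genes that share the same 6 libraries. With cytosine content rho was -0.54, against -0.44 over all tested genes. With the share of cytosines that follow A or U, the context APOBEC1 prefers, it was 0.43, against 0.43 over all tested genes. The 20 Rab genes of lower GC content had a median log2 difference of -0.01, with 9 positive, and the 20 of higher GC content had -0.44, with 5 positive. Rab1b had the highest GC content of the tested genes (58.9%) and the most negative difference, while Rab1a had 40.8%. Rab28 (45.4%) and Rab40b (49.4%) lay nearer the median of 47.2%. With the trend on GC content over all genes removed, Rab1b (log2 difference -0.76), Rab28 (0.99) and Rab40b (-0.80) were still called by limma, Rab11a (-0.67) was added, and Rab5b (-0.49), Rab8a (-0.57) and Rab9b (0.44) were not called. The differences of Rab5b and Rab8a thus changed little in size when their calls were lost.

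**Figure D4:**
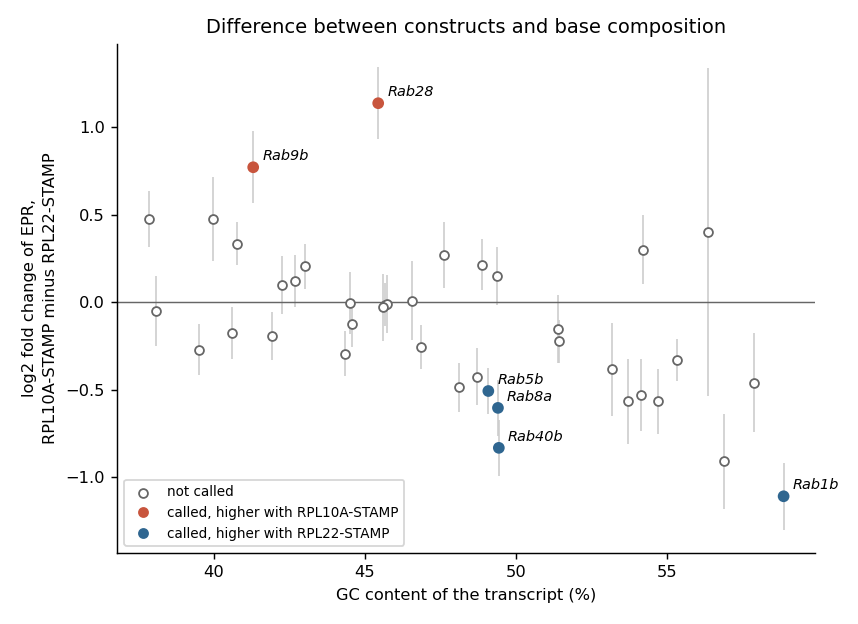
Log2 fold change of EPR, with its standard error, against the GC content of the transcript for the 40 tested Rab genes. Coloured points were called; Rab1b stands at the GC-rich end with -1.11 and Rab9b at 41.3% with 0.77.

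The genes that regulate Rab proteins were read from the same fit. Of 121 genes on the lists, 120 were found, 83 were tested and 11 were called (13.3%, against 14.3% of all genes), 9 higher with RPL10A-STAMP (10.8%, against 8.51% of all genes) and 2 with RPL22-STAMP (2.41%, against 5.77%). Newly made Rab proteins are presented by Rab escort proteins to a geranylgeranyl transferase and later taken off membranes by GDP dissociation inhibitors. Of 6 tested genes for these steps, Chm and Gdi2 were called (33.3%, against 14.3% of all genes). Chm, an escort protein, had an EPR of 0.0333, 0.0481 and 0.0485 with RPL10A-STAMP against 0.0170, 0.0168 and 0.0127 with RPL22-STAMP (log2 difference 0.77, SE 0.16, limma adjusted p = 0.0232). Its relative Chml had 0.0152, 0.0192 and 0.0240 against 0.0122, 0.0123 and 0.0102, with a log2 difference of 0.20 (SE 0.15). With the GC trend removed, neither Chm (log2 difference 0.29) nor Gdi2 (0.16) was called by limma, and Chml stood at -0.17.

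Gdi2, a GDP dissociation inhibitor, had 0.0151, 0.0157 and 0.0192 against 0.00575, 0.00736 and 0.00505 (log2 difference 0.54, SE 0.13, limma adjusted p = 0.0350). Every RPL10A-STAMP library of Gdi2 was above every RPL22-STAMP library. Rabggtb, the catalytic subunit of the transferase, and Rabif, a Rab chaperone, had log2 differences of -0.16 and -0.43, and Rabggta was edited in 3 libraries and not tested.

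Among the regulators 1 of 20 GEF genes (5%), 4 of 27 GAP genes (14.8%) and 4 of 31 effector genes (12.9%) were called. The share of all tested genes called was 14.3%. Ocrl, a phosphoinositide phosphatase that binds several Rabs, had an EPR of 0.0715, 0.136 and 0.122 with RPL10A-STAMP against 0.0118, 0.0156 and 0.0251 with RPL22-STAMP (log2 difference 1.81, SE 0.22, limma adjusted p = 0.00472). Dennd4a, a GEF with a DENN domain, had 0.0538, 0.102 and 0.0953 against 0.0147, 0.0165 and 0.0146 (log2 difference 1.55, SE 0.17, limma adjusted p = 0.00452). Tbc1d15, a GAP for Rab7, had 0.0412, 0.0757 and 0.0822 against 0.0124, 0.0159 and 0.00807 (log2 difference 1.48, SE 0.20, limma adjusted p = 0.00610). For each of these 3 genes every RPL10A-STAMP library was above every RPL22-STAMP library. Ocrl and Dennd4a were called in all 18 alternative settings and Tbc1d15 in 17, more than any Rab gene.

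The 2 regulators called higher with RPL22-STAMP were Evi5l and Rab11fip4. Evi5l, which belongs to the TBC domain family of GAPs, had 0.00732, 0.0150 and 0.00853 with RPL10A-STAMP against 0.0186, 0.0220 and 0.0146 (log2 difference -0.72, SE 0.18, limma adjusted p = 0.0398). As deposited these values of Evi5l overlapped and after scaling they did not. Rab11fip4, a Rab11 effector, had 0.0101, 0.00915 and 0.0124 against 0.0159, 0.0236 and 0.0183, without overlap (log2 difference -0.72, SE 0.13, limma adjusted p = 0.0152). The remaining called genes, all higher with RPL10A-STAMP, were Rabgap1l, Tbc1d12, Appl1 and Bicd1.

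**Figure D5:**
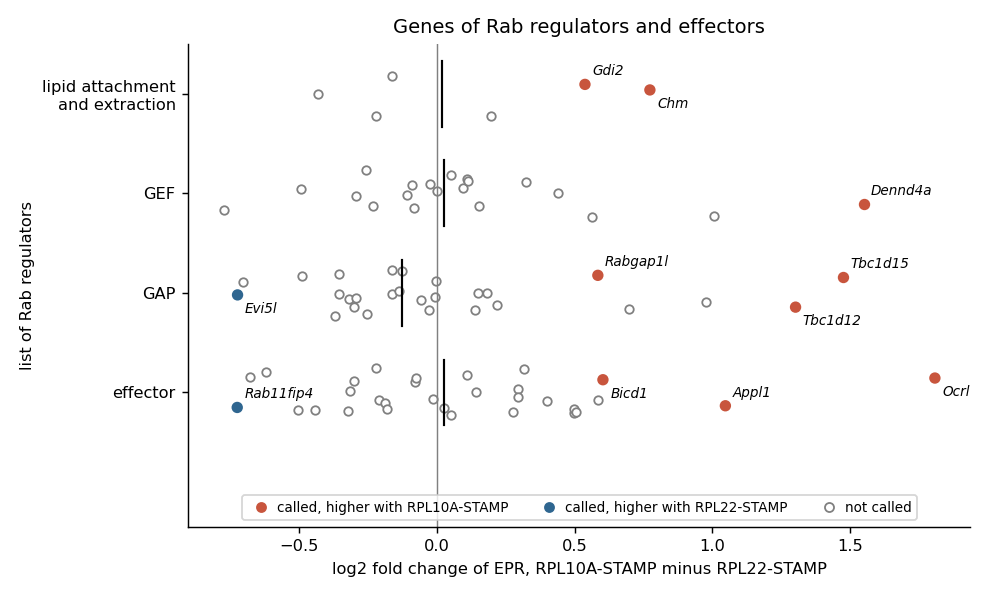
Log2 fold change of EPR for the 83 tested genes of Rab lipid attachment and extraction, GEFs, GAPs and effectors, with a black line at each list's median. Points are spread vertically only to separate them; the 11 called genes are named, 9 of them to the right of 0, and Dennd5a stands in both the GEF and the effector row.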

How the data were processed

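EPR was analysed for 3 RPL10A-STAMP and 3 RPL22-STAMP libraries, grouped by their labels. The authors trimmed reads with cutadapt, aligned them with STAR to mm10 with several locations allowed for a read, used SAILOR for the C-to-U edits, counted reads with featureCounts and deposited for each gene and library the ratio of edits to reads. The annotation and strand setting of that counting are not given in the sources used here. Edit and read counts were not analysed here, so the depth per library is unknown, no counting interval could be given, and only the spread over 3 libraries measures the error. The study's methods call replicates biological and its text on correlations calls them technical, so p-values measure only the spread between these libraries.

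Identifiers were named through GENCODE release 21 (GRCm38), which held 31011 of 31053. Libraries were brought to a common level through their medians over the 8046 genes that carried edits in all 6, the common level being the geometric mean of the 6 medians. Differences were tested with limma 3.58.1 (R 4.3.3) on log2(EPR + 0.01) with a mean-variance trend, with Benjamini-Hochberg adjustment over all 8046 genes and a threshold of 0.05. A log2 difference on this scale understates the change of genes with low EPR. Ratios of paralogs were tested with exact permutation over all 20 labelings. GC content, coding sequence and codons came from the transcript with the longest complete coding sequence, and exact copies from BLAST 2.17.0. The fit was tested on simulated data. The Rab genes, roles and regulator lists were chosen with earlier results of these data known. Named with values were all called Rab genes, the 5 highest and 5 lowest mean EPRs, paralogs of called genes, genes at 0 by name, up to 3 called regulators with the largest changes in each direction (only 2 were higher with RPL22-STAMP) and the lipid attachment genes, of which 1 is not reported here. Rab genes added beyond this rule, and the paralogs whose sequences are shown, were chosen after their values were seen. The added alternative, without genes of EPR above 1, was also chosen after seeing the data. RPS2-STAMP libraries and uninfected cultures were not analysed here.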

Additional observations from a re-analysis of the deposited data

How the results depend on the processing

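Of 18 alternatives, 17 were planned and 1 (genes with EPR above 1 left out) was chosen after seeing the data. Percentages in brackets give the share of all genes tested in a setting that were called there. The count of Rab genes called, 6 as reported (14.3%), was 3 without scaling (13.5%) and 1 with genes edited in at least 1 library (4.44%). It was 3 with the replicate block (7.49%) and 0 with the GC trend removed and the replicate block (2.82%). The count of Rab genes called ranged from 0 to 4 when a library was left out (4.59% to 10.9%). Those higher with RPL10A-STAMP, 2 as reported, were 1 with a pseudocount of 0.001, scaling to the geometric mean, genes edited in at least 3 libraries, the replicate block, the GC trend removed or the length trend removed, 0 with genes edited in at least 1 library or with the GC trend and block, and 0 to 2 without a library. Those higher with RPL22-STAMP, 4 as reported, were 5 with the length trend removed. They were 3 with a pseudocount of 0.001 or 0.1, or with genes edited in at least 3 libraries (Rab26 included). The same count came with the GC trend removed or with genes of EPR above 1 left out. The block gave 2, and no scaling or genes edited in at least 1 library gave 1. The GC trend with the block gave 0, and leaving out a library gave 0 to 3. Rab regulators called, 11 as reported, were 6 and 5 with genes edited in at least 3 and at least 1 libraries. They were 4 with the block, 4 with the GC trend removed, 2 with both, and 3 to 9 without a library. Of all genes tested, 6.91% were called with genes edited in at least 3 libraries and 8.23% with the GC trend removed. The r of same-numbered deviations was 0.04, 0.05 and -0.01, against -0.05 to 0.004 for unlike numbers. Deviations were taken after scaling, which removes a shift common to all genes of a library. Whether replicate numbers pair the libraries is thus not settled, and a call lost under the block is not interpreted. Calls were gained by Rab11a with the GC trend removed and by Rab11b with the length trend removed. Rab39b gained a call without RPL22-STAMP replicate 1 and Rab5c without RPL22-STAMP replicate 2. Rab26 gained a call with genes edited in at least 3 libraries, a filter it passed only through the RPL22-STAMP libraries, where it was higher. Of all 40 tested Rab genes, 12 changed sign without scaling, 5 with the GC trend removed, 4 with the length trend removed and 2 to 5 without a library, none of them called. Among the genes named with values the sign changed in these: without scaling Rab10 (0.30), Rab33b (0.10), Rab6a (0.18), Rab8b (0.075) and Rab9 (0.14); with the GC trend removed, also with the block, Chml (-0.17), Rab1a (-0.012) and Rab5a (-0.19); with the length trend removed Rab9 (0.11); with a pseudocount of 0.1 Rab33b (0.00026); and, over the settings that leave out a library, which include values of both signs, Rab10 (-0.143 to 0.0752), Rab33b (-0.0976 to 0.145), Rab9 (-0.17 to 0.169), Rab43 (-0.486 to 1.47), Rab5a (-0.0524 to 0.199) and Rabggtb (-0.44 to 0.0456). The causes were not tested. EPR gives no read number, so low values such as those of Rab33b, Rab9 and Rab24 have unknown precision.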
